A study of Mus with 15 samples.

Results

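The ribosomal protein genes were taken as all protein-coding genes on mouse chromosomes 1 to 19 whose symbol starts with Rpl or Rps and a digit, with the Rps6k kinases left out. This gave 83 genes of 20665, with 50 Rpl symbols (large ribosomal subunit) and 33 Rps symbols (small subunit). Of the 83 genes, 69 encode the constitutive ribosome, 8 are paralogs (Rpl10l, Rpl22l1, Rpl32l, Rpl36al, Rpl39l, Rpl3l, Rpl7l1 and Rps27l), 5 are retrocopies or retrocopy-derived genes (Rpl31-ps12, Rpl34-ps1, Rpl37rt, Rps27rt and Rps23rg1), and Rps19bp1 encodes a binding partner of a small subunit protein. The rule used the symbol alone and no measured value.

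Ribosomal proteins are built into every ribosome, and their genes are among the most steadily transcribed housekeeping genes of any cell. H2AK119ub1 (H2Aub) is histone H2A with a single ubiquitin on its tail. It is placed by Polycomb repressive complex 1 and is best known from silenced developmental genes such as the Hox clusters. Ribosomal protein genes serve here as the opposite case, genes that all cells of the thalamus need.

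H2Aub was profiled by ChIPmentation, chromatin immunoprecipitation with sequencing adapters inserted by Tn5 transposase, in thalami of mice aged 2 to 4 months. The Maged1 WT mice were floxed controls, and the Maged1-cKO mice (cKO) carried the floxed allele together with Vglut2-Cre, which deletes Maged1 in Vglut2-expressing (glutamatergic) cells and leaves it in the other cells of the tissue. All mice first had 3 days of saline and then 5 days of either cocaine (20 mg/kg, intraperitoneal) or saline. Cocaine-treated mice gave 3 WT and 2 cKO libraries and saline-treated mice 3 of each genotype, 11 in all, each made from 3 to 4 pooled thalami per the labels, a range whose minimum the study's methods put lower. The study asked how cocaine and Maged1 deletion change where H2Aub lies. Peaks of this mark do not measure the deletion, so the genotype labels were not checked here.

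The authors called peaks in each library separately against total input, and the lists give no read counts. The study states a minimum of reads that all samples passed, but not the depth of each, so the depth behind each list is unknown. On chromosomes 1 to 19 the lists held 7235 to 79872 peaks. The cKO cocaine and cKO saline libraries with replicate number 1 stood apart, with 54201 and 79872 peaks against 7235 to 25972 in the other 9, and with highest fold enrichments of 31.2 and 52.6 against 5.98 to 12.2. Results that rest on these 2 libraries are given with and without them. A longer list from deeper sequencing and a longer list from more marked chromatin cannot be told apart.

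Few ribosomal protein genes carried the mark. A gene was scored as having a peak when at least 1 bp of a peak lay in the gene body or within 5 kb of it. In WT cocaine, 3, 10 and 5 of the 83 genes had a peak (3.61, 12.0 and 6.02%). In WT saline the numbers were 6, 3 and 1 (7.23, 3.61 and 1.20%). In cKO cocaine they were 18 and 3 (21.7 and 3.61%), and in cKO saline 28, 2 and 2 (33.7, 2.41 and 2.41%). The 2 high values belonged to the replicates 1 of both cKO groups, and the other 9 libraries lay between 1.20 and 12.0%.

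The mean share over the 11 libraries was 8.87% ± 10.1 (SD, n = 11), with a median of 3.61%. All coding genes, scored in the same way, had a peak in 27.6% ± 15.4. The ribosomal protein genes were lower in each of the 11 libraries, by 18.8 ± 6.09 percentage points on average. Without the cKO replicates 1 their share was 4.69% ± 3.32 (SD, n = 9) against 21.1% ± 5.57 for all coding genes. The 69 constitutive genes alone stood at 3.70% ± 2.91 in these 9 libraries.

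**Figure D1:**
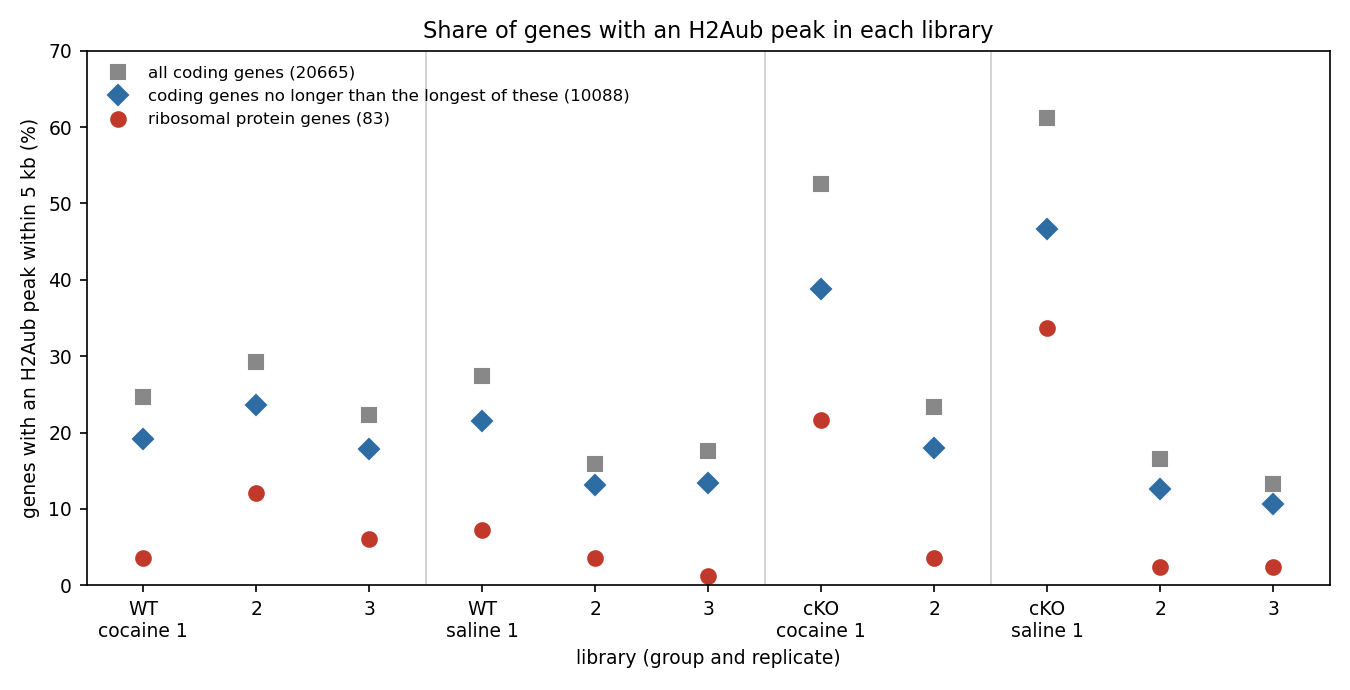
The share of genes with an H2Aub peak in the gene body or within 5 kb (y axis, percent) is plotted for each of the 11 libraries (x axis, by group and replicate); circles are the 83 ribosomal protein genes, squares all coding genes, and diamonds coding genes up to the length of the longest ribosomal protein gene. The circles lie lowest in every library, and both cKO libraries with replicate number 1 are high for all 3 gene sets.

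Ribosomal protein genes are short, and a short gene offers less room for a peak. Their median length was 3175 bp against 17491 bp for coding genes. Among the 10088 coding genes no longer than the longest ribosomal protein gene (16779 bp), 16.7% ± 4.44 had a peak in the 9 libraries, 12.0 ± 2.43 percentage points above the ribosomal protein genes. The difference was present in all 11 libraries. These 10088 genes were still longer than the ribosomal protein genes, with a median of 5744 bp.

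Within classes of length the picture was not uniform. The 51 ribosomal protein genes of 2 to 5 kb had a mean share of 7.31% over the 11 libraries against 24.7% for coding genes of that length, and of 3.49% against 20.0% over the 9 libraries. The 14 genes of 5 to 10 kb had 12.3% against 25.8% over 11 and 7.94% against 20.5% over 9. They were lower than coding genes of their class in 11 of 11 libraries for both classes. The 16 genes of up to 2 kb had 9.66% against 8.06% over 11 and 6.25% against 5.81% over 9, and were lower in 4 of the 11 libraries. Of these 16 genes, 4 had a peak in at least 1 of the 9 libraries (25.0%, against 14.2% of coding genes of that length), namely the retrocopies Rps27rt and Rpl34-ps1, the paralog Rpl36al and the constitutive Rps28, and no peak of theirs lay in the gene body. Both genes longer than 10 kb had no peak in the 9 libraries.

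Most ribosomal protein genes had no peak at all. Of the 83 genes, 49 had none in any of the 11 libraries, and 34 had at least 1 (41.0%, with a background of 68.7% of all coding genes). Those without a peak included 24 of the 33 small subunit symbols, 25 of the 50 large subunit symbols and 6 of the 8 paralogs. The small subunit proteins Rps6, the phosphorylated target of the S6 kinases, and Rps3, Rps14 and Rps19 were among these, as were the large subunit proteins Rpl5 and Rpl11, which bind the 5S RNA, and Rpl4 and Rpl30. Of the 34 genes with a peak, 19 had peaks only in the cKO replicates 1 (22.9% of the 83, with a background of 26.8%). In the other 9 libraries, 15 genes had a peak (18.1%, with a background of 41.9%), 12 of them with Rpl symbols and 3 with Rps symbols. The 83 genes gave 81 pairs of a gene and a library with a peak, 46 of which fell in the cKO replicates 1.

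In 2 or more libraries of a group, 5 ribosomal protein genes had a peak anywhere in the window (6.02%, with a background of 30.8%). These were Rpl23a, Rps27rt, Rpl37rt, Rpl38 and Rpl10a. The study kept peaks that replicates had in common. When the same bases had to lie under peaks in 2 libraries of a group, Rpl23a, Rps27rt and Rpl38 remained (3.61%, with a background of 22.3%). Rpl23a and Rps27rt had a peak in every library of a group (2.41%, with a background of 24.8%), and no ribosomal protein gene had one in all 11 libraries, as 1474 coding genes (7.13%) did.

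The gene bodies were nearly free of the mark. In the 9 libraries, 25.2% of the coding genes of up to the same length had a peak touching the gene body, with a median length of 5744 against 3175 bp. Among the ribosomal protein genes 2 did (2.41%, with a background of 34.3%). One was Rpl37rt, a retrocopy, whose peaks in WT cocaine replicate 2 and WT saline replicate 2 touched the body near its end. The other was Rpl10a, with a single 125 bp peak in cKO saline replicate 3. That peak had a −log10 q of 1.27, which is a q above 0.05. At q of at most 0.05 none of the 69 constitutive genes had a body peak in these libraries, whereas 30.9% of coding genes did. In the cKO replicates 1, body peaks were also called at Rpl19, Rpl35a, Rps15a and Rps19bp1.

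The density of peaks changed with distance from the gene. In the 9 libraries the bodies of the ribosomal protein genes held 0.164 ± 0.268 bases under peaks per kb (SD, n = 9), and the flank from 0 to 1 kb held 0.70 ± 1.08. For coding genes of up to the same length the values were 26.0 ± 7.91 in the body and 26.4 ± 7.88 from 0 to 1 kb. From 2 to 3 kb the ribosomal protein genes reached 3.90 ± 3.90 against 16.5 ± 4.68, and from 10 to 15 kb 4.53 ± 2.87 against 9.44 ± 3.37. From 15 to 20 kb the values were 8.21 ± 4.18 and 9.11 ± 3.16, from 20 to 30 kb 6.27 ± 3.35 and 8.52 ± 3.08, and from 30 to 50 kb 9.66 ± 3.85 and 8.33 ± 3.12. The ribosomal protein genes were lower in 11 of 11 libraries in the body and in every bin up to 15 kb except that from 3 to 4 kb (10 of 11), then in 5 libraries from 15 to 20 kb, in 9 from 20 to 30 kb and in 1 from 30 to 50 kb.

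**Figure D2:**
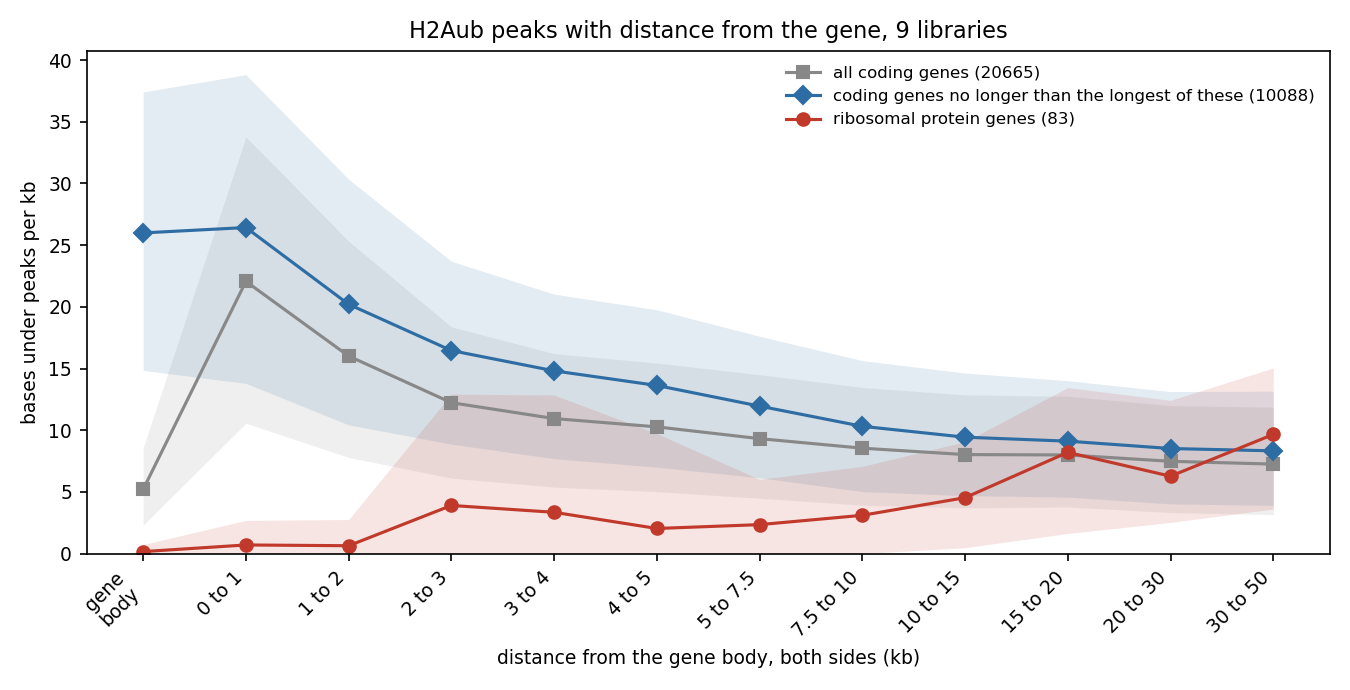
Bases under H2Aub peaks per kb (y axis) are plotted for the gene body and for bins of distance from it on both sides (x axis, kb), for the ribosomal protein genes (circles), coding genes of up to the same length (diamonds) and all coding genes (squares); points are means over 9 libraries and shaded bands their range, with both cKO replicates 1 left out. The curve of the ribosomal protein genes starts at 0.164 in the body and comes near the other curves from 15 to 20 kb, lies below them again from 20 to 30 kb (6.27 against 8.52 and 7.48) and above them from 30 to 50 kb.

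The wider regions were not free of peaks. The median distance from a ribosomal protein gene to the nearest peak was 80.6 ± 39.7 kb in the 9 libraries (mean and SD of the library medians), against 95.9 ± 39.6 kb for coding genes of up to the same length.

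Ribosomal protein genes have many processed pseudogene copies in the mouse genome, and the study's methods state that alignments of low mapping quality were removed, which affects sequence present in several copies. The gene table held 272 pseudogenes with symbols of the same form on chromosomes 1 to 19, and their bodies touched a peak in the 9 libraries in 1 case (0.368%), against 256 of the other 9047 pseudogenes (2.83%), which are longer (median 939 against 531 bp). Counted with the flanks of 5 kb, the ribosomal protein pseudogenes were not lower, with 3.96% ± 2.41 against 3.10% ± 1.28 (SD, n = 9). In contrast, the flanks of the 83 genes from 0 to 2 kb were also low. The part of mapping in the low body values was not tested.

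Other housekeeping families were scored in the same way. In the 9 libraries 2.42% ± 1.50 of the 78 mitochondrial ribosomal protein genes (Mrpl and Mrps) had a peak, 8.50% ± 4.46 of the 68 translation factor genes (Eif and Eef) and 12.4% ± 4.67 of the 50 proteasome subunit genes, whose median length is 11930 bp. The mitochondrial set thus stood below the 4.69% of the cytosolic ribosomal protein genes. The 39 Hox genes, with a median length of 3737 bp close to that of the ribosomal protein genes, had a peak in all 11 libraries without exception, and held 811 ± 106 bases under peaks per kb of the scored window against 1.59 ± 1.72 for the ribosomal protein genes (SD, n = 9).

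The peaks that were found near ribosomal protein genes mostly lay at other genes. The 34 genes gave 100 peaks, of which 61 lay in the body of another coding gene and outside the ribosomal protein gene. Another 10 lay between coding genes but nearer to another one. A further 17 lay outside any coding gene and nearest to the ribosomal protein gene, 9 touched its body alone and 3 touched both bodies. So 71.0% lay nearer to another coding gene, and 78.0% (32 of 41) in the 9 libraries. A site was counted anew in each library that called it, so genes with peaks in many libraries weigh most. Of the 71 peaks nearer to another coding gene, 11 lay at Tlcd1, a neighbour of Rpl23a, and 12 at Osbpl10, the neighbour of Rps27rt. For coding genes of up to the same length 20.9% of such peaks lay nearer to another gene, and for all coding genes 9.42%. Another coding gene was present in the windows of 62 of the 83 ribosomal protein genes (74.7%), compared with 51.5% of the windows of coding genes of up to the same length.

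Windows with a neighbour held a peak more often in both gene sets. Of the 62 ribosomal protein genes with a neighbour, 13 had a peak in the 9 libraries (21.0%), and of the 21 without a neighbour, 2 had one (9.52%). The matching shares of coding genes of up to the same length were 41.1 and 27.2%.

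The median fold enrichment of these peaks in the 9 libraries, as the authors' caller gave it, was 3.53, close to the 3.58 of peaks at coding genes of up to the same length, while their maximum was 4.31 against 7.92. Only 3 of the 41 peaks had a q of at most 0.01 (7.32%), against 32.6% of the peaks at coding genes of up to the same length.

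Rpl23a encodes a large subunit protein at the exit of the peptide tunnel and lies on chromosome 11 from 78180935 to 78183584 (mm10). Its window held 174, 1318 and 130 bases under peaks in WT cocaine and 278, 414 and 0 in WT saline. In cKO cocaine it held 618 and 604, and in cKO saline 770, 0 and 716. Cocaine and saline overlapped in both genotypes, as did WT and cKO within each treatment, and 9 of the 11 libraries had a peak. Of its 12 peaks, 11 lay in the body of Tlcd1, a membrane lipid regulator at 78176716 to 78181019 that overlaps one end of Rpl23a, and 1 lay in Rab34, a small GTPase of cilia formation. The Tlcd1 peaks stood 1655 to 3595 bp from Rpl23a, and Tlcd1 had no peak in any library outside the Rpl23a window.

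Rps27rt is a single-piece retrocopy of the small subunit gene Rps27 and lies on chromosome 9 from 114982366 to 114982739, inside Osbpl10, an oxysterol-binding protein gene at 114978485 to 115233273. The source gene Rps27 itself had no peak in any library. The window of Rps27rt held 494, 1214 and 748 bases under peaks in WT cocaine and 0, 0 and 503 in WT saline. In cKO cocaine it held 572 and 949, and in cKO saline 643, 403 and 0. Every cocaine library had a peak and 3 of the 6 saline libraries did, and the ranges overlapped in both genotypes. Of the 12 peaks, 9 touched the body of Osbpl10 near its start coordinate and the other 3 lay just outside that end.

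Rpl37rt, a retrocopy of the large subunit gene Rpl37, lies on chromosome 5 from 115102922 to 115110268, next to Acads, the short-chain acyl-CoA dehydrogenase gene at 115110299 to 115119346. Rpl37 itself had no peak in any library. The window of Rpl37rt held 0, 354 and 180 bases under peaks in WT cocaine and 367, 105 and 0 in WT saline. In cKO cocaine it held 761 and 0, and in cKO saline 1492, 0 and 0. The peaks crowded around the end shared with Acads, and 7 of the 9 touched the body of Acads. In cKO only the replicates 1 had a peak.

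Rpl38, a large subunit gene known for its part in the translation of Hox mRNAs, lies on chromosome 11 from 114667818 to 114672333. Its window held 0, 1246 and 224 bases under peaks in WT cocaine and none in WT saline, 1027 and 0 in cKO cocaine, and 1083, 0 and 0 in cKO saline. Of its 8 peaks, 6 touched Ttyh2, a membrane protein gene at 114675468 to 114720984, which had peaks elsewhere in its own window in 7 libraries. The other 2 lay 792 and 1452 bp from Rpl38 on the far side.

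Rpl10a, a large subunit gene on chromosome 17 from 28328471 to 28331033, had 345 bases under a peak in WT cocaine replicate 2, 539 in cKO saline replicate 1 and 125 in cKO saline replicate 3, and 0 in the other libraries. The first 2 peaks lay in Tead3, a transcription factor gene of the Hippo pathway at 28331671 to 28350805. Tead3 had peaks elsewhere in its own window in all 11 libraries.

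**Figure D3:**
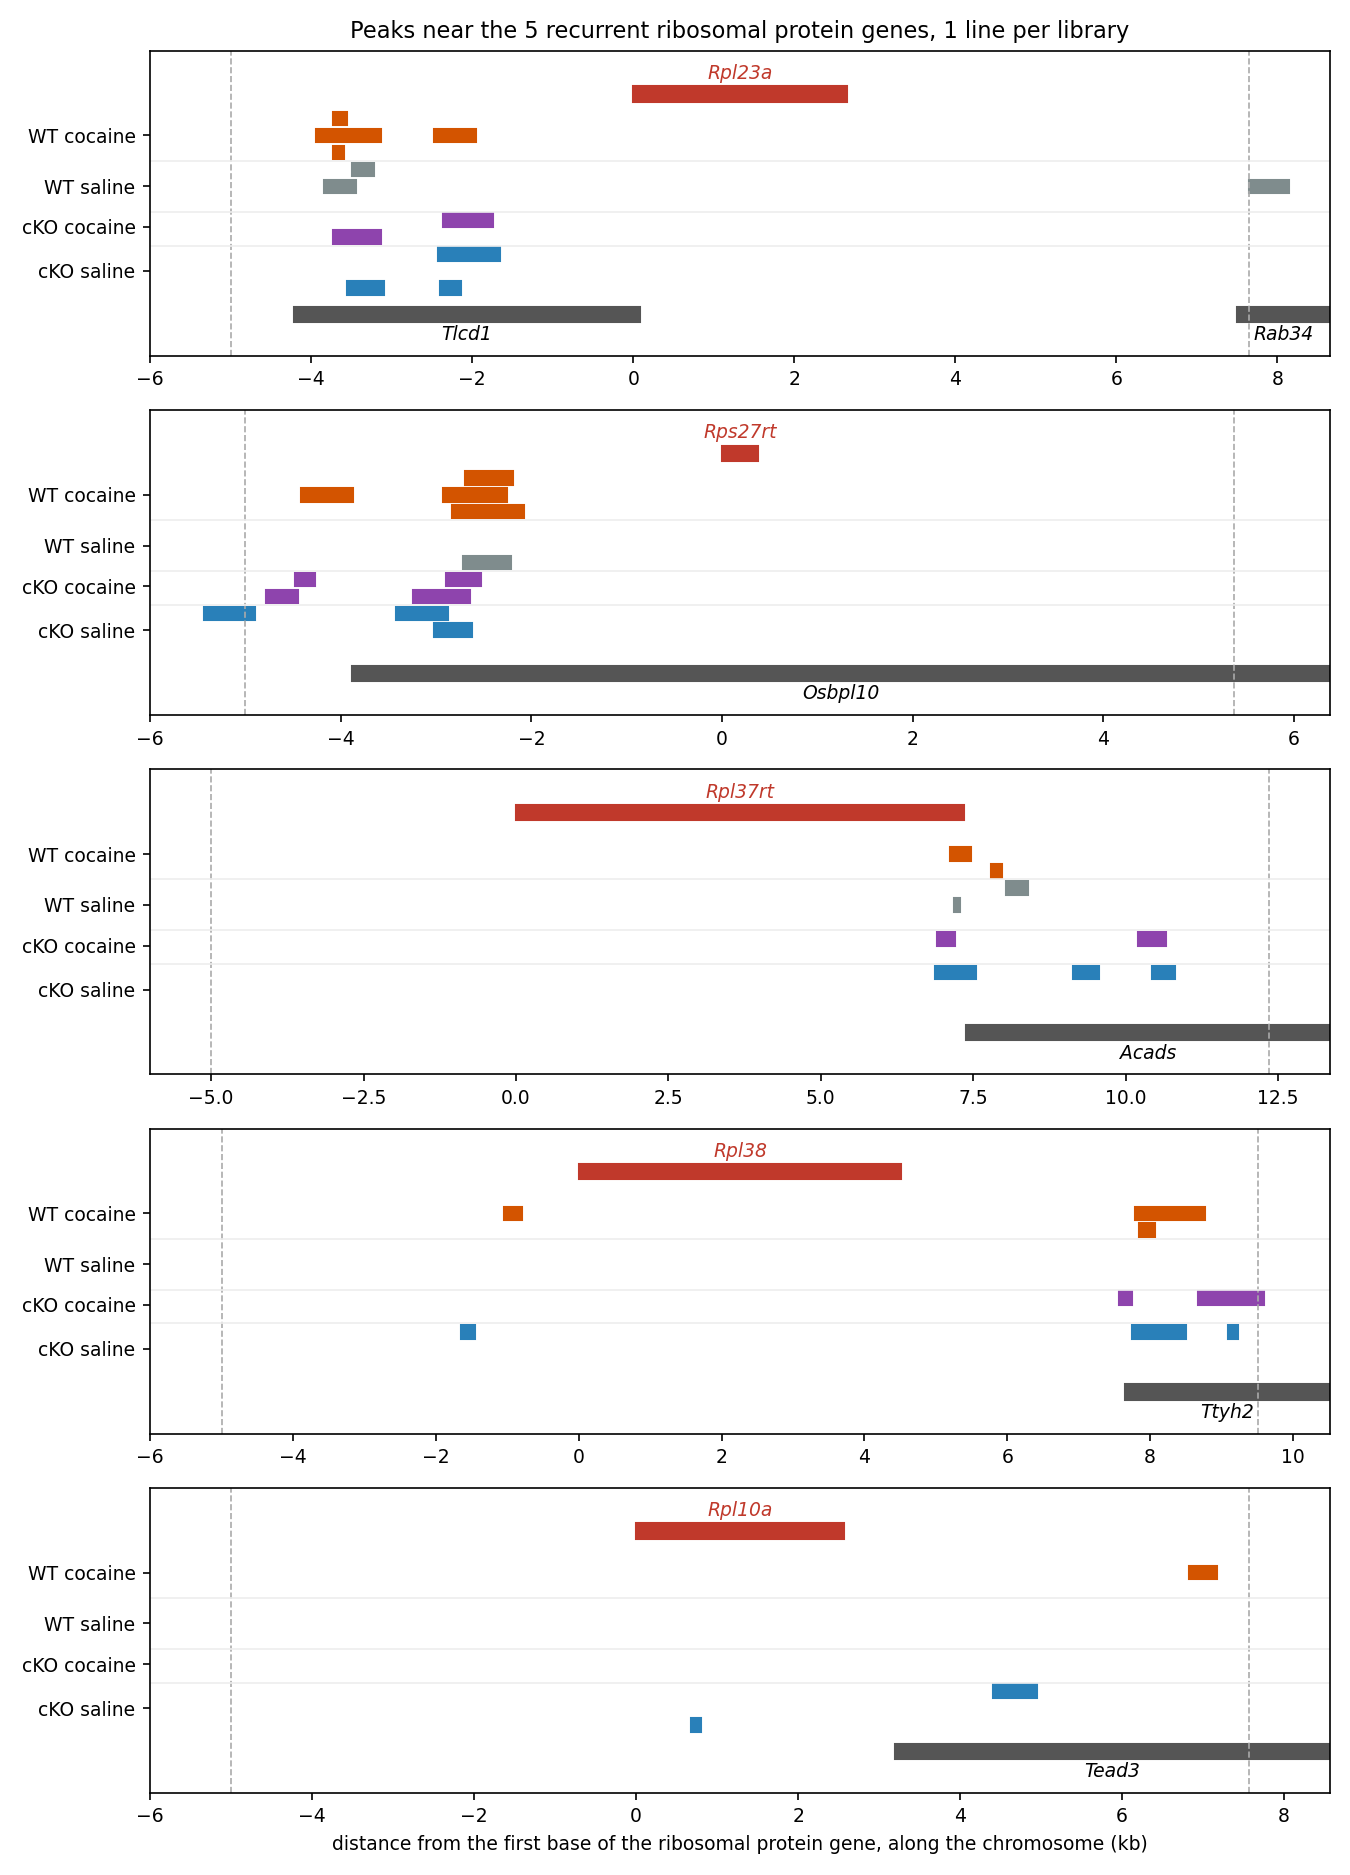
Peaks near Rpl23a, Rps27rt, Rpl37rt, Rpl38 and Rpl10a are drawn as bars, with a line for each library in group order, against distance from the first base of the gene along the chromosome (x axis, kb); the upper bar is the ribosomal protein gene, the lower bars are the nearest other coding genes, and dashed lines mark 5 kb from the gene body. Nearly all bars stand over or beside the neighbouring gene, and a bar lies under the ribosomal protein gene only for Rpl37rt, at its end, and for Rpl10a.

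Other genes with a peak in the 9 libraries showed a similar layout. Rpl22 had 4 peaks in 4 libraries, all in Chd5, a chromatin remodeller of neurons. Rpl19 had peaks in 4 libraries, near Stac2, which had peaks elsewhere in all 11 libraries, and in Cacnb1, a calcium channel subunit gene. Rpl7 had 3 peaks in 3 libraries, all in Rdh10, a retinol dehydrogenase gene. Rps28 had 1 peak, in Kank3.

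In the 9 libraries 6 peaks lay outside any coding gene and nearest to the ribosomal protein gene, 1 of them the Rpl38 peak at 792 bp. Of the others, Rpl26 had a 112 bp peak 609 bp from the gene in WT cocaine replicate 3, Rpl34-ps1 a 116 bp peak 291 bp away in WT cocaine replicate 2, and Rps24 a 463 bp peak 4390 bp away in cKO saline replicate 2. Rpl3 had a 106 bp peak 4860 bp away in WT cocaine replicate 2, and the paralog Rpl36al a 98 bp peak 1650 bp away in WT saline replicate 1. Each of these 5 genes had its peak in 1 of the 9 libraries only. For 8 of the 34 ribosomal protein genes with a peak, a nearest neighbour had peaks in its own window in 5 or more of the 9 libraries. Of all coding genes 19.6% had as many, but this is not a like background, since the 34 genes were picked for having a peak. The neighbour windows also include peaks shared with the ribosomal protein gene window. Tlcd1, for example, had a peak in 7 of the 9 libraries in its window and in 0 elsewhere.

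**Figure D4:**
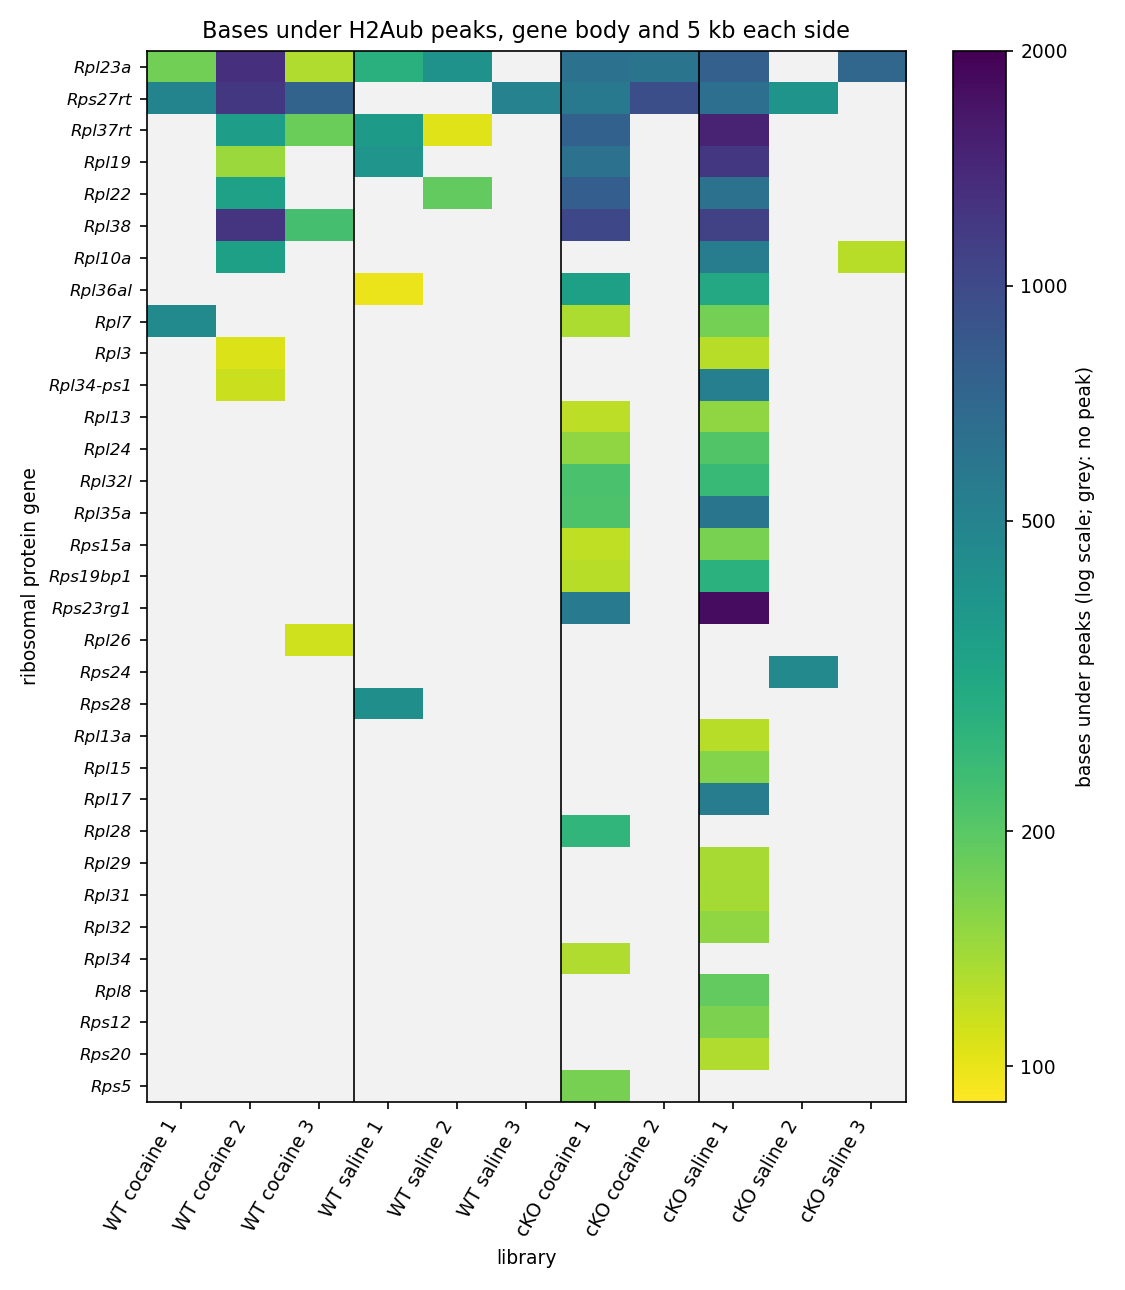
Bases under H2Aub peaks in the gene body and 5 kb on each side (colour, log scale; grey, no peak) are shown for ribosomal protein genes with a peak (rows) in the 11 libraries (columns, by group and replicate). Rpl23a and Rps27rt fill 9 and 8 columns, and the lower rows are filled mostly in the columns of both cKO replicates 1.

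Of the ribosomal protein genes 15 had peaks in both cKO replicates 1 (18.1%, with a background of 47.5%) and 13 had peaks that overlapped (15.7%, with a background of 39.7%). At 8 of the 13 no peak of the other 9 libraries overlapped a shared site (9.64%, with a background of 20.8%). Among coding genes of up to the same length these shares were 33.5, 27.9 and 12.0%, so the last lay close to that of the ribosomal protein genes. The highest fold enrichment in cKO cocaine was 14.3, at a site 3053 bp from Rpl36al and nearer to Lrr1, where cKO saline had 8.84. At Rpl35a, a large subunit gene, the shared site lay in the gene body, with folds of 7.87 and 5.49. At Rpl32l, a paralog inside Map7, the folds were 6.35 and 9.86, at Rpl7 7.88 and 6.53, and at Rpl13 7.25 and 6.71. In both libraries the shared sites of 6 of the 8 genes exceeded the highest fold at any ribosomal protein gene in the other 9 libraries, 4.31, while those of Rpl19 (3.66 and 4.38) and Rpl24 (3.35 and 2.88) did not in both. These 8 genes were picked for their peaks in these 2 libraries. Folds there also reached higher at coding genes of up to the same length, to 43.6 against 7.92 in the other 9 libraries. The excess is thus no trait of the ribosomal protein genes.

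The treatment comparison asked whether cocaine changed H2Aub at the ribosomal protein genes. In WT the share of genes with a peak was 7.23% ± 4.34 after cocaine and 4.02% ± 3.03 after saline (SD, n = 3 each), a difference of 3.21 ± 3.06 percentage points (SE). The ranges overlapped, and without WT cocaine replicate 2 the difference was 0.80. All coding genes differed by 5.12 ± 4.15 points in the same direction. In cKO the shares were 12.7% ± 12.8 (n = 2) and 12.9% ± 18.1 (n = 3), a difference of -0.20 ± 13.8 points, and 1.20 points without the cKO replicates 1. All coding genes differed by 7.63 ± 21.3 points in cKO with all libraries.

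The genotype comparison gave 12.9% ± 18.1 in cKO saline against 4.02% ± 3.03 in WT saline. This difference of 8.84 ± 10.6 points, against 10.1 ± 15.9 for all coding genes, was -1.61 points without the cKO replicates 1. After cocaine the difference of cKO from WT was 5.42 ± 9.38 points, against 12.6 ± 14.8 for all coding genes, and -3.61 without the cKO replicates 1. The sign at the ribosomal protein genes thus rested on 1 library in each cKO group. Each of their 4 differences was smaller than 2 times its SE. No p was computed for these shares, since a share over chosen genes is not a test across genes.

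For single genes, the bases under peaks were compared by an exact two-sided permutation test on log2(bases + 100), with treatment labels permuted within genotype, or genotype labels within treatment, over 200 arrangements. The smallest p this allows is 0.005. Of the 14196 coding genes with a peak in any library 0 passed a Benjamini-Hochberg adjusted p of 0.05 in either comparison, and the smallest adjusted p was 1.0 for treatment and 0.65 for genotype. At the smallest p of 0.005, an adjusted p of 0.05 would take at least 1420 genes, so this threshold was hard to reach by design. At an unadjusted p of at most 0.05, 589 coding genes were higher after cocaine (4.15% of those tested) and 0 were lower (0%), and 322 were higher in cKO (2.27%) and 113 lower (0.796%). Without both cKO replicates 1 the direction of the genotype counts turned, with 17 of 8658 genes higher in cKO and 407 lower, and 940 were higher after cocaine and 1 lower. Of the ribosomal protein genes, 34 could be tested, 19 of them through the cKO replicates 1 alone. For most of these the outcome was fixed, since with peaks in so few libraries no arrangement could give a p of 0.05 or less for 24 of the 34 in the treatment test and for 26 in the genotype test. Of the 10 and 8 that could reach it, 0 did. Among all coding genes 7184 could reach it for treatment, of which 8.20% did, and 6987 for genotype, of which 6.23% did.

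Rps27rt had the smallest treatment p, with a log2 difference of 1.79 after cocaine by the exact permutation test (p = 0.055, adjusted p = 1.0), while the level in WT saline replicate 3 (503 bases) lay above the lowest WT cocaine library (494 bases). For Rpl38 the difference was 1.19 (exact permutation p = 0.35, adjusted p = 1.0), for Rpl23a 0.76 (p = 0.39, adjusted p = 1.0 in the same exact test), for Rpl37rt 0.18 (exact permutation p = 0.865, adjusted p = 1.0) and for Rpl10a -0.28 (exact permutation p = 0.70, adjusted p = 1.0). In cKO against WT these 5 genes differed by 0.28 to 0.65 on the same log2 scale, with exact permutation p from 0.44 to 0.795 and adjusted p from 0.83 to 1.0. Without the cKO replicates 1 these genotype differences ran from -1.15 for Rpl37rt to 0.37 for Rpl23a, and the sign turned for Rpl37rt, Rpl38 and Rpl10a. The median genotype difference over all tested coding genes turned likewise, from 0.43 to -0.31. The treatment differences of Rps27rt, Rpl23a and Rpl38 stayed above 0 in each of the 5 alternatives, while the sign for Rpl37rt or Rpl10a turned in some. The median treatment difference over all tested coding genes was also above 0 throughout, at 0.26 in the main test and 0.07 to 0.56 in the alternatives. With peaks of q at most 0.05 Rpl23a had the larger difference and the smaller p, at 1.53 (exact permutation p = 0.095, adjusted p = 1.0) against 1.41 for Rps27rt (exact permutation p = 0.11, adjusted p = 1.0). Replicates were separate pools of thalami per the labels, and no statement in them ties the pools to separate litters or days.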

How the data were processed

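H2Aub ChIPmentation peak lists of 11 thalamus libraries (WT cocaine 3, WT saline 3, cKO cocaine 2, cKO saline 3) were analysed, and 4 total input libraries were not analysed here. Per the labels and the study's methods, the authors trimmed reads with Cutadapt, mapped them to mm10 with Bowtie2 2.3.4.1, removed alignments of low mapping quality with SAMtools and called broad peaks with MACS2 2.1.1.20160309.3 against total input, in each library separately. For every peak the deposited lists held its coordinates, a score that was 10 times the −log10 q, the fold enrichment over input as a linear ratio, and the −log10 p and −log10 q. The highest q in a deposited list was 0.0997, and all listed peaks were used. The lists held no read counts, so depth could not be corrected for, and a deeper library can give a longer list and smaller detectable enrichments.

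Genes came from a RefSeq table of GRCm38.p6, which has mm10 coordinates. It gave no strand, so gene bodies with 5 kb on each side were used in place of promoters. Shares of genes with a peak, bases under peaks and distances to the nearest coding gene were computed per library and described over libraries as mean ± SD. Bases under peaks per gene were tested by exact permutation over samples, with 100 bases added before the log2, and adjusted by the Benjamini-Hochberg method over all coding genes with a peak. The test was checked on simulated data. Named were the members with a peak in 2 or more libraries of a group, then the others by counts, all paralogs, and the nearest coding neighbours. Rps6, Rps3, Rps14, Rps19, Rpl5, Rpl11, Rpl4 and Rpl30 and the sites shared by the cKO replicates 1 were singled out after their values were seen. Pseudogenes, body peaks, peaks with common bases and the set without retrocopies were also added after seeing the data. The members, lists and tests were chosen with earlier results of these data known. The values of 1 member on its own are not reported here. Alternatives covered the q limit, peak number, window, overlap, members and libraries. Python 3.11.15 with numpy 2.4.6, pandas 2.3.3 and scipy 1.17.1 was used.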

Additional observations from a re-analysis of the deposited data

How the results depend on the processing

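The share of ribosomal protein genes with a peak stayed below that of all coding genes under all 24 alternatives, by 11.3 to 22.1 percentage points. The difference moved by more than 1 SD to -11.3 points at q of at most 0.01, to -12.2 with the same number of peaks per library (7235) and to -12.5 against coding genes no longer than the longest member. The mean share ran from 1.10 to 16.4%, and from 6.39 to 9.64% with single libraries left out, where the difference ran from -19.6 to -17.6. The count of 5 genes with a peak in 2 or more libraries of a group became 1 at q of at most 0.01, 1 with equal numbers of peaks, 0 in gene bodies alone, 2 with 2 kb, 12 with 10 kb, 3 with at least 200 bases under peaks, 0 with only peaks nearest to the gene itself, 3 with the same bases under peaks in 2 libraries and 3 without paralogs, Rps19bp1 and retrocopies, and it was 4 to 5 with single libraries left out. The count of 2 genes with a body peak became 1 at q of at most 0.05, 0 at q of at most 0.01, 1 with at least 200 bases, 1 without paralogs, Rps19bp1 and retrocopies, and 1 to 2 with single libraries left out, being 1 without cKO saline replicate 3. The share of peaks nearer to another gene ran from 65.0 to 78.0%, and from 69.8 to 76.2% with single libraries left out.

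Group differences of the share depended on the setting and on single libraries. With the same number of peaks per library, cocaine minus saline was 1.20 points in WT and 0.60 in cKO. In that setting cKO minus WT was 1.20 after saline and 0.60 after cocaine. At q of at most 0.01 these differences were 0, 1.00, 7.63 and 8.63 points in the same order. With libraries left out in turn they ran from 0.80 to 5.02 points for WT cocaine minus WT saline, -9.24 to 10.2 for cKO cocaine minus cKO saline, -1.61 to 14.1 for cKO saline minus WT saline and -3.61 to 14.5 for cKO cocaine minus WT cocaine, the last being -3.61 without both cKO replicates 1. For all coding genes, leaving out both turned the unadjusted genotype counts from 322 higher and 113 lower to 17 higher and 407 lower. The labels do not say that replicate numbers pair the samples. Deviations of same-numbered WT libraries correlated at 0.07, 0.00 and 0.03. Those of cKO libraries correlated at 0.43 and 0.35, so that with 2 pairs, 1 of them the libraries that stood apart, pairing in cKO could not be decided. With a replicate block the difference was 3.21 points in WT and -5.42 in cKO, where it was -0.20 without the block. The cKO pairs leave out cKO saline replicate 3, which has no partner. This omission alone gives the change, since a mean over the same libraries is equal with or without pairs. The blocked gene test allows no p under 0.0625, so no gene could pass either threshold in it. Without both cKO replicates 1 the smallest p was 0.01667 for treatment and 0.025 for genotype, at which an adjusted p of 0.05 would take at least 2886 and 4329 genes, so the absence of adjusted calls there says nothing of stability. Among the ribosomal protein genes Rps27rt alone passed an unadjusted threshold, in 1 alternative, with 500 bases added (log2 difference 0.83, exact permutation p = 0.045, adjusted p = 1.0, against 0.50 to 1.0 over all alternatives). A window at transcription start sites was not run, since the gene table gives no strand. Depth limits all counts, because a weakly marked gene in a short list cannot be told from an unmarked one.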

Other observations

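The X chromosome lay outside the rule. It held 4 further ribosomal protein genes. Rpl10, Rpl36a and Rpl39 had no peak in any of the 11 libraries. Rps4x had a peak in 2 libraries and in none of the 9 other than the cKO replicates 1.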
